A study of Mus musculus with 12 samples.

Results

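Transcripts of 10 receptor genes were followed across sorted mouse gallbladder and small intestinal epithelium. The genes, Sucnr1, Ffar2, Ffar3, Gprc5c, Vmn2r26, Gabbr1, Cysltr2, P2ry1, P2ry2 and Gpbar1, were taken by symbol, through their Ensembl identifiers in GENCODE M21, from a table of 43432 genes. Apart from the orphan receptor Gprc5c, they encode receptors for small molecules that reach epithelial cells from the lumen or from neighbouring cells. All 10 had a row in the table, and 9 held enough reads to be tested. Gpbar1 did not.

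Every group came from Flare25 reporter mice, whose Il25-transcribing cells are marked by red fluorescence. Live single EpCAM+ cells were sorted into IL-25+ (red) and IL-25- fractions from the gallbladder and from the proximal small intestine, which gave 4 groups of 3 libraries. The protocol text of all 12 libraries describes homeostasis, but the labels also list HDM AF647, a house dust mite allergen coupled to a dye and with the day before collection as its time (1 day), for all 6 gallbladder libraries and none from the small intestine. Tissue and that treatment label therefore cannot be told apart in any comparison of gallbladder with small intestine. The labels give no age, no sex and no statement that replicates came from separate mice, so the p-values measure the spread between these libraries, which may be technical. The IL-25- fraction is all other EpCAM+ epithelium, not 1 cell type. Libraries are named by tissue, gate and replicate number, such as SI-pos 1 for the first IL-25+ library of the small intestine and GB-neg 3 for the third IL-25- library of the gallbladder.

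The main source of IL-25 in gut epithelium is the tuft cell, a rare chemosensory cell type that reads the luminal content with G protein-coupled receptors and passes the signal on through a taste-type calcium cascade. Sucnr1 is the receptor for succinate, a product of microbes and protists that is known to start the tuft cell response in the small intestine. Ffar2 and Ffar3 bind short-chain fatty acids, P2ry1 binds ADP, P2ry2 binds ATP and UTP, and Gpbar1 binds bile acids. Gabbr1 encodes a subunit of the GABA-B receptor, Cysltr2 a receptor for cysteinyl leukotrienes, and Vmn2r26 a receptor of the vomeronasal family.

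Libraries held 23703449 to 64736650 counts. All 14 tuft cell markers examined were higher in the IL-25+ fraction of both tissues, and their summed level was 27100 to 43000 CPM (read counts scaled per 1e6 by TMM library size) in the IL-25+ libraries against 43.9 to 278 CPM in the IL-25- libraries. The 14 include Il25, whose reporter set the gate, so a higher level of that marker was fixed by the sort. Of all tested genes, 14.5% were higher in IL-25+ cells of the small intestine and 12.4% in those of the gallbladder. Libraries of a group also differed in markers of other cell types. Goblet markers summed to 59700 CPM in SI-neg 2, against 13400 and 4400 CPM in SI-neg 1 and SI-neg 3, and Paneth markers to 5750 against 931 and 1270 CPM. Myeloid markers summed to 215 CPM in GB-neg 2, against 27.0 and 22.0 CPM in GB-neg 1 and GB-neg 3. The part of these markers in the receptor results was not tested. In transcripts of the other tissue, a pair of libraries stood apart. GB-neg 1 carried small intestine transcripts at a median of 5.59% of their level in IL-25- small intestine over 102 genes, against at most 0.206% in the other gallbladder libraries, and SI-neg 3 carried gallbladder transcripts at 2.11% over 78 genes, against at most 0.611%. GB-neg 1 also held 48 reads of Il25, the gene that sets the gate, against 0 to 2 in the other IL-25- libraries and 169 to 454 in the IL-25+ libraries, and without it every tested receptor kept its call and direction between the gallbladder gates. Mitochondrial transcripts moved with the groups, at 12.1 to 17.2% of counts in SI-pos, 26.6 to 34.9% in SI-neg, 7.13 to 8.83% in GB-pos and 11.2 to 25% in GB-neg libraries, and their part in the receptor results was not tested. Leaving out both libraries kept the direction and the call of 43 of 45 receptor results. The exceptions, P2ry1 and P2ry2 between the IL-25- groups, are given with their values where those groups are compared. Enterocyte markers summed to 9140 to 11700 CPM in SI-pos libraries and to 10000 to 18700 CPM in SI-neg libraries, so the IL-25+ fraction of the small intestine also held enterocyte transcripts. The sums are set mostly by the genes with most reads, and the median log2 fold change of the 10 markers between these gates was -1.72. In these bulk samples, fewer cells of a type and less RNA per cell cannot be told apart.

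The 4 groups carried different receptor transcripts. Summed over the 10 genes and divided by exonic length, the level was 785.8 ± 211.4 CPM per kb (SD, n = 3) in IL-25+ cells of the small intestine and 223.4 ± 25.95 in those of the gallbladder. It was 25.95 ± 7.727 CPM per kb in IL-25- cells of the small intestine and 33.58 ± 6.371 in those of the gallbladder. Ffar3 made up 68.0% of this sum in SI-pos libraries, followed by Gprc5c with 23.0%, Sucnr1 with 4.36% and Gabbr1 with 3.05%. In GB-pos libraries Gprc5c held 50.2% and Ffar3 44.2%, and Sucnr1 held 0.0793%. The nucleotide receptors led the IL-25- cells, P2ry1 with 47.4% of the sum in the small intestine and P2ry2 with 47.7% in the gallbladder.

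**Figure D1:**
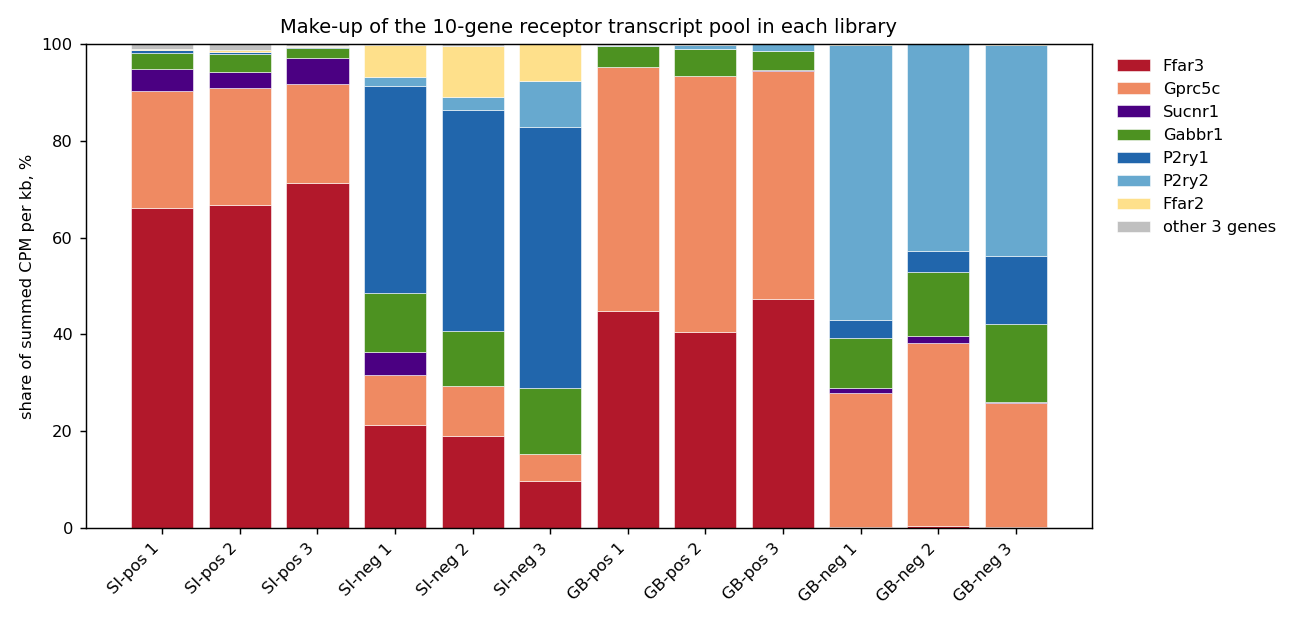
Share of each receptor gene in the summed transcript level of the 10 genes (CPM per kb of exon, %), 1 stacked bar per library. Ffar3 and Gprc5c fill most of the 6 IL-25+ bars, P2ry1 is the largest part of the 3 SI-neg bars and P2ry2 of the 3 GB-neg bars.

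Between the sort gates of the small intestine, 6 of the 9 tested receptor genes were higher in IL-25+ cells (Sucnr1, Ffar3, Gprc5c, Vmn2r26, Gabbr1 and Cysltr2), 1 was lower (P2ry1) and 2 did not pass the test (Ffar2 and P2ry2). In this comparison 27.2% of all 16636 tested genes passed at an adjusted p under 0.05 in edgeR's quasi-likelihood test, 14.5% as higher and 12.8% as lower. The median log2 fold change was 6.24 over the 9 receptors and -0.07 over all tested genes. In the gallbladder, 4 of 9 were higher in IL-25+ cells (Ffar3, Gprc5c, Vmn2r26 and Gabbr1), 1 was lower (P2ry1) and 4 did not pass (Sucnr1, Ffar2, Cysltr2 and P2ry2), where 26.8% of all tested genes passed, 12.4% as higher and 14.4% as lower. The medians there were -0.75 over the receptors and -0.15 over all tested genes. Ffar3, Gprc5c, Vmn2r26 and Gabbr1 were therefore higher in IL-25+ cells of either tissue, and P2ry1 was lower in both.

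**Figure D2:**
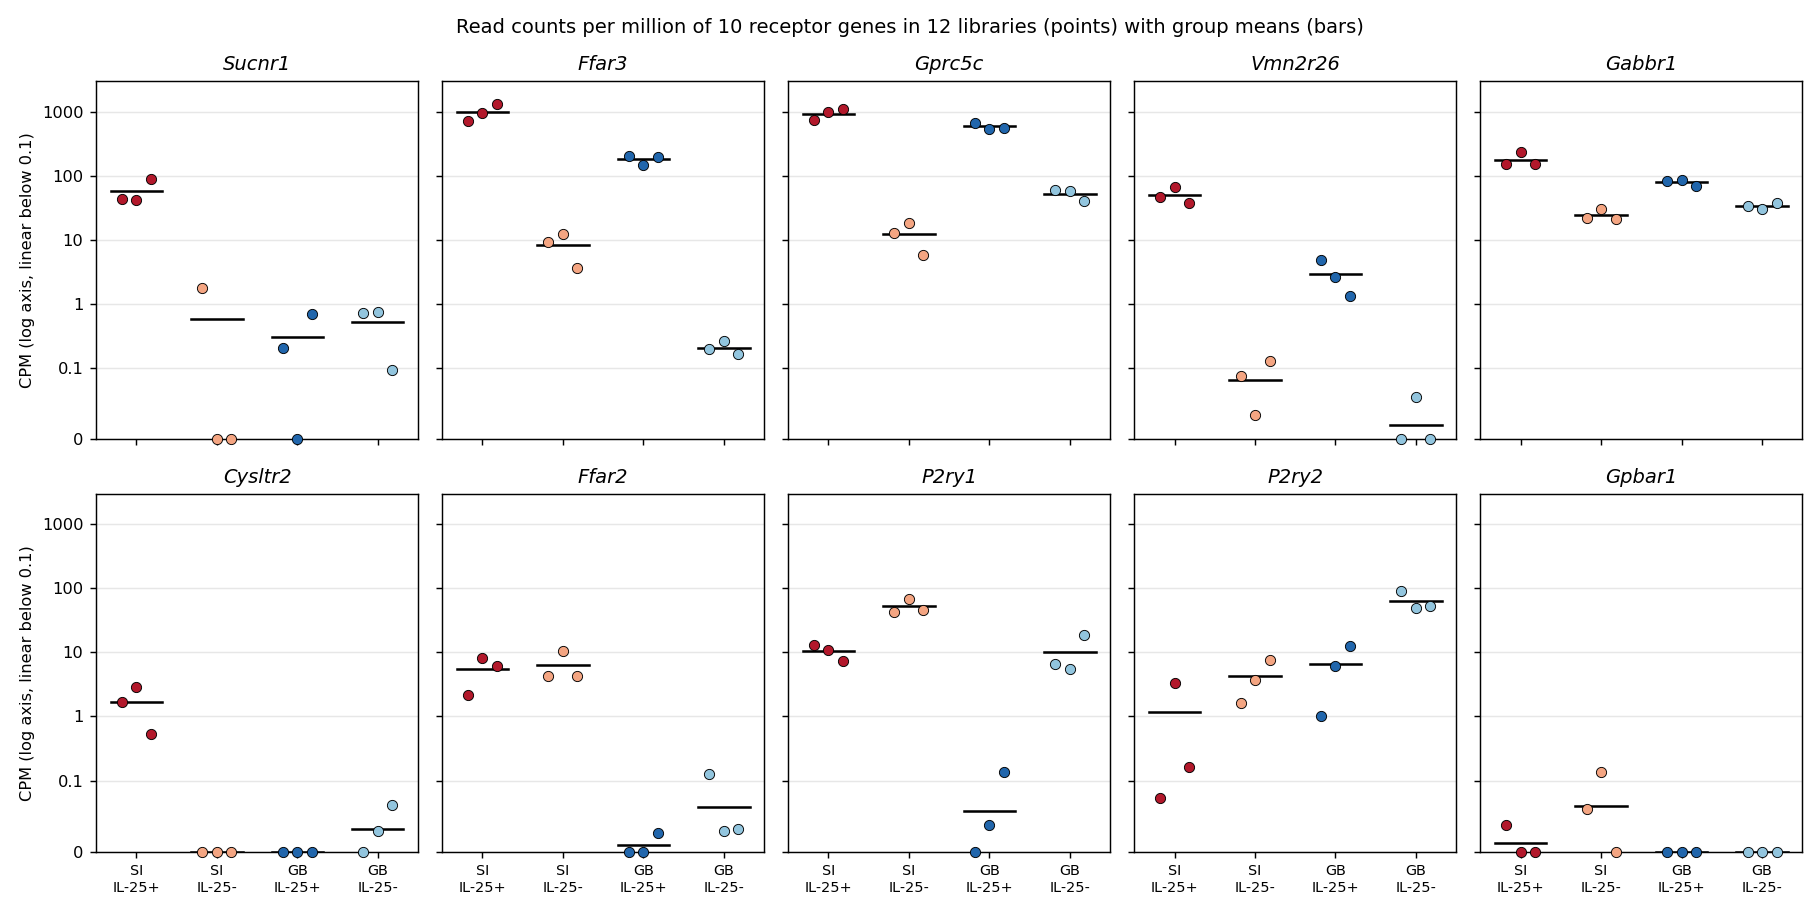
CPM of each receptor gene in the 12 libraries (points, 3 per group) with the group mean (bar), on a log axis that is linear below 0.1. Ffar3 and Gprc5c lie above 100 CPM in each IL-25+ library, Sucnr1 lies above 40 CPM in SI-pos libraries only, P2ry1 is highest in SI-neg and P2ry2 in GB-neg libraries.

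Sucnr1 (ENSMUSG00000027762, GRCm38 chromosome 3, 60081869 to 60087566, plus strand, 3 exon blocks) was well read in IL-25+ cells of the small intestine and near 0 in the other 3 groups. Its level was 42.7, 41.0 and 88.1 CPM in SI-pos 1 to 3 and 1.75, 0 and 0 CPM in SI-neg 1 to 3. In the gallbladder it was 0.203, 0 and 0.70 CPM in GB-pos 1 to 3 and 0.716, 0.738 and 0.0974 CPM in GB-neg 1 to 3. The 3 SI-pos libraries thus stood above the other 9, which overlapped one another. The log2 fold change between gates was 6.61 ± 1.72 (SE, adjusted p = 0.0167) in the small intestine. It was -0.75 ± 1.5 (adjusted p = 0.756) in the gallbladder, where GB-pos libraries held 33 reads and GB-neg libraries 79. All 59 reads of the SI-neg group lay in SI-neg 1. Without that library the small intestine value was 13.95 (adjusted p = 0.000943), and without SI-pos 3 it was 6.16 (adjusted p = 0.0526). SI-neg 1 and SI-neg 2 had like sums of the tuft markers, 278 and 270 CPM.

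The octamer ATGCAAAT is the textbook motif of POU factors, the family of POU2F3, the regulator that defines tuft cells. It was searched on both strands, with its 7-letter core ATGCAAA and the TATA box TATAAA, in the 250 bases before each RefSeq start (GRCm38.p6) of the 9 receptors that have an entry, 13 windows in all. Gprc5c had no entry. The promoters of Sucnr1 and Ffar3, genes that rose in IL-25+ cells of the small intestine, and of P2ry1, the gene that fell, are printed here with any octamer or core in capitals. They span chr3:60081619-60081868 (plus strand), chr7:30856179-30856428 (minus strand) and chr3:61002535-61002784 (plus strand), each read 5′ to 3′ along its gene.
Sucnr1: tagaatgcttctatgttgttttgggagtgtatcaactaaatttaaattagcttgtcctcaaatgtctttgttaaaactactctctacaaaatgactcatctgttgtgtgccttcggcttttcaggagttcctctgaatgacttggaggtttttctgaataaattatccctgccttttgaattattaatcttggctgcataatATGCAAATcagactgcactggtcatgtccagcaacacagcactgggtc
Ffar3: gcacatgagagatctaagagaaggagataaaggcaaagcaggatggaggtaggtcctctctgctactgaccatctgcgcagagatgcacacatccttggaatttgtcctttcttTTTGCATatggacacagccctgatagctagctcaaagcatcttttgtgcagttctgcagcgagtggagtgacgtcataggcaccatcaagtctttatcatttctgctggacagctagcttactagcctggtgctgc
P2ry1: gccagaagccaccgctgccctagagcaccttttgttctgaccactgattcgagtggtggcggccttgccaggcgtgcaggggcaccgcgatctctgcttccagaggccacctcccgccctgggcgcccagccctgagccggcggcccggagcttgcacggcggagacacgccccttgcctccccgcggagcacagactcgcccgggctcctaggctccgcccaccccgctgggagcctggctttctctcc
The Sucnr1 window held the whole octamer, with its first base at -48 from the start, and the Ffar3 window held the core on the opposite strand at -136, where it reads TTTGCAT. No window of the other receptors held either, among them Vmn2r26, Gabbr1 and Cysltr2, which also rose in IL-25+ cells of the small intestine. The printed windows thus include every window that held the octamer or its core. Of 32851 such windows over all genes, 1.6% held the octamer and 4.12% the core, a count that includes the octamers. The TATA box was found in 12.4% of all windows and, among the receptors, only in that of Vmn2r26, at -134 on the opposite strand. A match describes these letters and not the binding of a factor.

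Ffar3 and Ffar2, the short-chain fatty acid receptors, are neighbours on the minus strand of chromosome 7 (GRCm38), 30.6 kb apart, and were read at very different levels. Ffar3 (ENSMUSG00000019429, 30854330 to 30856178, 1 exon block) had 707.5, 959.6 and 1319 CPM in SI-pos 1 to 3 and 9.11, 12.3 and 3.61 CPM in SI-neg 1 to 3. In the gallbladder it had 204.8, 146.6 and 198.6 CPM in GB-pos 1 to 3 and 0.197, 0.266 and 0.162 CPM in GB-neg 1 to 3. None of the 4 groups overlapped another, and their order was SI-pos, GB-pos, SI-neg, GB-neg. The gate difference was 6.90 ± 0.45 log2 (adjusted p = 3.65e-07) in the small intestine and 9.76 ± 0.53 (adjusted p = 1.08e-07) in the gallbladder. SI-neg libraries also held enteroendocrine markers, summing to 7380 to 16400 CPM against 5.23 to 449 CPM in GB-neg libraries, and their part in the Ffar3 reads of the IL-25- fractions was not tested.

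Ffar2 (ENSMUSG00000051314, 30818348 to 30823775, 5 exon blocks) split by tissue rather than by gate. The level was 2.15, 8.10 and 6.20 CPM in SI-pos 1 to 3, overlapping the 4.24, 10.3 and 4.22 CPM of SI-neg 1 to 3, with a log2 difference of -0.19 ± 0.85 (adjusted p = 0.898). The direction of this value turned to 0.19 without SI-pos 1 and to 0.37 without SI-neg 2. In the gallbladder GB-pos 1 to 3 had counts of 0, 0 and 1, and GB-neg 1 to 3 of 9, 1 and 1. The 9 reads lay in GB-neg 1, the library with small intestine transcripts, and the part of those transcripts was not tested. The gate difference there did not pass (-2.4 ± 1.21, adjusted p = 0.16).

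Gprc5c, Vmn2r26 and Gabbr1 are class C receptors, a family that includes the sweet and umami taste receptors and the calcium-sensing receptor. Gprc5c (ENSMUSG00000051043, chromosome 11, 114851152 to 114872617, 6 exon blocks), an orphan receptor known to be induced by retinoic acid, had 735.9, 988.4 and 1079 CPM in SI-pos 1 to 3 and 12.8, 18.5 and 5.82 CPM in SI-neg 1 to 3. It had 654.1, 542.6 and 562.4 CPM in GB-pos 1 to 3 and 59.2, 58.3 and 40.8 CPM in GB-neg 1 to 3. Gprc5c was thus well read in all 4 groups, with IL-25+ libraries above IL-25- libraries in each tissue and GB-neg above SI-neg. The gate difference was 6.24 ± 0.40 log2 (adjusted p = 2.72e-07) in the small intestine and 3.47 ± 0.35 (adjusted p = 1.19e-05) in the gallbladder.

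Vmn2r26 (ENSMUSG00000096630, chromosome 6, 124024568 to 124065806, 7 exon blocks) belongs to the pheromone receptors of the vomeronasal organ and has been described in tuft cells as a sensor of a bacterial metabolite. Its level was 46.7, 66.9 and 37.1 CPM in SI-pos 1 to 3 and 4.88, 2.67 and 1.35 CPM in GB-pos 1 to 3. The IL-25- libraries held 3, 1 and 5 counts in SI-neg 1 to 3 and 0, 2 and 0 counts in GB-neg 1 to 3, so the gates did not overlap in either tissue. The difference was 9.14 ± 0.86 log2 (adjusted p = 6.98e-06) in the small intestine. In the gallbladder it was 7.26 ± 0.91 (adjusted p = 7.12e-05), a 200-fold ratio of summed reads with a 95% counting interval of 54.9 to 1660. Without GB-neg 2, which holds both reads of its group, the gallbladder value was 9.69, and without GB-neg 1 it was 6.4. Among all 50-base stretches of Vmn2r26 transcripts, 18% also occur in transcripts of other genes, and how the authors' counting treated such reads is not given in the sources used here. The snoRNA gene Gm24843, which lies inside Vmn2r26 on the opposite strand, had 295 reads in SI-pos, 2 in SI-neg, 43 in GB-pos and 0 in GB-neg libraries, and without strand these cannot be told apart from Vmn2r26 introns.

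Gabbr1 (ENSMUSG00000024462, chromosome 17, 37045966 to 37075067, 22 exon blocks) was read in every library, with the smallest gate difference of the 4 receptors that were higher in IL-25+ cells of either tissue. Its level was 150.6, 230.4 and 153.9 CPM in SI-pos 1 to 3, 22.1, 30.8 and 21.1 CPM in SI-neg 1 to 3, 83.2, 85.7 and 68.5 CPM in GB-pos 1 to 3 and 33.2, 30.2 and 37.8 CPM in GB-neg 1 to 3. The gates did not overlap in either tissue, while SI-neg and GB-neg libraries overlapped each other. The gate difference was 2.85 ± 0.24 log2 (adjusted p = 2.9e-06) in the small intestine and 1.23 ± 0.23 (adjusted p = 0.00146) in the gallbladder. Gabbr2, singled out after its values were seen because its product pairs with that of Gabbr1 in the GABA-B receptor, had 0 reads in each SI-pos library and 1, 0 and 1 in SI-neg 1 to 3. GB-pos 1 to 3 had 21, 24 and 28 of its reads, and GB-neg 1 to 3 had 11, 23 and 0. Its gate difference did not pass in the small intestine (-2.63 ± 2.05, adjusted p = 0.376) or in the gallbladder (1.43 ± 1.54, adjusted p = 0.531).

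Cysltr2 (ENSMUSG00000033470, chromosome 14, 73025603 to 73049114, 7 exon blocks) had few reads, nearly all in IL-25+ cells of the small intestine. Counts were 45, 72 and 13 in SI-pos 1 to 3, 0 in each SI-neg and each GB-pos library, and 0, 1 and 2 in GB-neg 1 to 3. Against a floor of 3 counts over the SI-neg group it was at least 58.7-fold higher in SI-pos (adjusted p = 0.0151). Without SI-pos 2 the adjusted p was 0.0506. In the gallbladder both gates were at or under the floor and the difference did not pass (adjusted p = 0.257).

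P2ry1 and P2ry2, the nucleotide receptors, had their highest levels in IL-25- cells, each in another tissue. P2ry1 (ENSMUSG00000027765, chromosome 3, 61002795 to 61008982, 2 exon blocks) had 13.02, 11.1 and 7.26 CPM in SI-pos 1 to 3 and 42.8, 67.8 and 46.1 CPM in SI-neg 1 to 3. It had 0, 0.0371 and 0.135 CPM in GB-pos 1 to 3 and 6.50, 5.58 and 18.3 CPM in GB-neg 1 to 3. SI-neg libraries were highest, SI-pos and GB-neg libraries overlapped, and GB-pos libraries held 6 reads in all. P2ry1 fell by 2.32 ± 0.57 log2 (adjusted p = 0.0087) from IL-25- to IL-25+ cells in the small intestine. In the gallbladder it fell by 7.32 ± 0.79 (adjusted p = 2.14e-05), a 147-fold ratio of summed reads with a 95% counting interval of 67.3 to 401. The gallbladder value was -8.99 without GB-pos 3 and -6.58 without GB-neg 3. Between gates of the small intestine, 7 of 10 enterocyte markers were not called, 1 was higher and 2 were lower. Their median log2 fold change was -1.72. Between the IL-25+ groups, enterocyte markers summed to 9140 to 11700 CPM in SI-pos and 52.9 to 69.3 CPM in GB-pos libraries, and their part in the P2ry1 reads of IL-25+ cells was not tested. The gene shares 992 exonic bases with Gm37035 on the opposite strand, which had 126 reads in SI-neg and at most 11 in any other group, and reads of that stretch cannot be assigned without strand.

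P2ry2 (ENSMUSG00000032860, chromosome 7, 100996568 to 101012866, minus strand, 4 exon blocks) had 91.3, 49.4 and 51.9 CPM in GB-neg 1 to 3 and 1.02, 6.20 and 12.6 CPM in GB-pos 1 to 3. In the small intestine it had 0.0755, 3.33 and 0.162 CPM in SI-pos 1 to 3 and 1.60, 3.67 and 7.49 CPM in SI-neg 1 to 3. GB-neg libraries stood above all others, and the other 3 groups overlapped in the order of their means. Markers of gallbladder and biliary epithelium were also highest in GB-neg libraries (summing to 6300 to 6810 CPM, against 660 to 762 CPM in GB-pos, 1210 to 1500 CPM in SI-neg and 217 to 356 CPM in SI-pos), and their part in the P2ry2 reads was not tested. Neither gate difference passed. It was -3.28 ± 1.21 log2 (adjusted p = 0.0683) in the gallbladder, although the groups did not overlap, and -1.84 ± 1.19 (adjusted p = 0.284) in the small intestine. The gallbladder value passed in 6 of 21 alternative fits, among them DESeq2 and limma-voom and the fits without SI-pos 1 (adjusted p = 0.0497) or SI-pos 2 (adjusted p = 0.0108), which lie outside the comparison and enter through the shared estimate of the spread. SI-pos 2 held 83 of the 89 SI-pos reads, and without it the small intestine value was -5.13 (adjusted p = 0.0101).

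Gpbar1 (ENSMUSG00000064272, chromosome 1, 74278550 to 74279624, 1 exon block), the membrane bile acid receptor known from gallbladder epithelium, had 0 reads in all 6 gallbladder libraries. A count of 0 allows up to 3 reads, or 0.0421 CPM in GB-neg 1 to 0.111 CPM in GB-pos 2, a limit that covers counting error only. In the small intestine SI-pos 1 to 3 had 1, 0 and 0 of its reads, and SI-neg 1 to 3 had 2, 4 and 0. A difference between gates was not detectable with so few reads (ratio 4.43, 95% counting interval 0.538 to 204).

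Among IL-25+ cells, 7 of the 9 tested receptors were lower in the gallbladder than in the small intestine, none was higher, and Gprc5c and P2ry2 did not pass. Of all tested genes 23.7% passed in this comparison, 10.5% as higher and 13.1% as lower in the gallbladder, and the medians were -4.08 over the receptors and -0.09 over all genes. The smallest difference that passed was that of Gabbr1 (-1.17 ± 0.23 log2, adjusted p = 0.0025), followed by Ffar3 (-2.44 ± 0.37, adjusted p = 0.000451) and Vmn2r26 (-4.08 ± 0.66, adjusted p = 0.000688). Sucnr1 was lower by 7.5 log2 (-7.5 ± 1.8, adjusted p = 0.0128), with -8.96 without GB-pos 3 and an adjusted p of 0.0548 without GB-pos 1. For Ffar2 the reads of SI-pos exceeded those of GB-pos 533-fold, with a 95% counting interval of 95.2 to 21100 (adjusted p = 0.000383), and the fitted value of -8.67 became -10.53 without GB-pos 3. P2ry1 reads were 173-fold fewer in GB-pos (interval 79.0 to 472, adjusted p = 3.41e-05), with fitted values of -8.99 without GB-pos 3 and -6.76 without GB-pos 1 beside -7.36. Cysltr2 was at least 56.1-fold lower (adjusted p = 0.0172, or 0.0568 without SI-pos 2). Gprc5c differed by -0.67 ± 0.32 (adjusted p = 0.146), although its groups did not overlap, and it passed under limma-voom and in the fit of these 2 groups alone. P2ry2 differed by 2.47 ± 1.21 (adjusted p = 0.167), and by 5.76 (adjusted p = 0.00702) without SI-pos 2.

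Among IL-25- cells the receptors moved in both directions, 2 higher and 3 lower in the gallbladder, where 24.6% of all tested genes passed, 2160 genes as higher and 1939 as lower. Gprc5c was higher in the gallbladder by 2.1 ± 0.33 log2 (adjusted p = 0.000607). P2ry2 was higher by 3.91 ± 1.25 (adjusted p = 0.0426), a call that was lost in 9 of 20 alternative fits, among them those without any single IL-25- library and without GB-pos 2 (3.53 to 4.64, adjusted p 0.0635 to 0.137). SI-neg 3, with its gallbladder transcripts, held 295 of the 459 SI-neg reads of P2ry2, and the part of those transcripts was not tested. With both SI-neg 3 and GB-neg 1 left out the P2ry2 value was 4.31 (adjusted p = 0.0774). Ffar2 (-6.45 ± 1.09, adjusted p = 0.000936), Ffar3 (-5.3 ± 0.46, adjusted p = 7.83e-06) and P2ry1 (-2.37 ± 0.57, adjusted p = 0.00869) were lower. Without GB-neg 1 the Ffar2 value was -7.44, without GB-neg 3 the P2ry1 value was -3.1, and without the pair of libraries that stood apart P2ry1 had an adjusted p of 0.0599. Gabbr1 differed by 0.45 ± 0.23 (adjusted p = 0.173). Vmn2r26 differed by -2.2 ± 1.06 (adjusted p = 0.152), or -4.61 (adjusted p = 0.0351) without GB-neg 2. Sucnr1 differed by -0.14 ± 1.45 (adjusted p = 0.963), and without SI-neg 1, the only SI-neg library with reads, by 7.2 (adjusted p = 0.045).

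Whether the gate difference was of another size in the gallbladder than in the small intestine was tested as the interaction of tissue and gate, in which 9.23% of all tested genes passed, 3.63% as higher and 5.6% as lower. Those higher made up 39.3% of the calls, but 51.2% with RLE scaling and 51.6% under DESeq2. Of the 9 receptors, 1 passed as higher and 4 as lower. The gap between gates was wider in the gallbladder for Ffar3 (2.86 ± 0.56 log2, adjusted p = 0.00661, or 0.359 under limma-voom) and narrower for Gprc5c (-2.77 ± 0.46, adjusted p = 0.00219) and Gabbr1 (-1.62 ± 0.32, adjusted p = 0.00674). The fall of P2ry1 was larger there (-5.0 ± 0.93, adjusted p = 0.0045), with -6.67 without GB-pos 3 and -4.26 without GB-neg 3. Cysltr2 passed (adjusted p = 0.0358) with a fitted value that depends on the prior count, since 2 groups had 0 reads, and it lost its call in 13 of 19 alternative fits. For Sucnr1 the interaction was -7.36 ± 2.2 (adjusted p = 0.064), and -14.7 (adjusted p = 0.0037) without SI-neg 1. Ffar2 (-2.22 ± 1.43, adjusted p = 0.392), Vmn2r26 (-1.88 ± 1.73, adjusted p = 0.586) and P2ry2 (-1.44 ± 1.62, adjusted p = 0.668) did not pass. The comparisons share libraries, so these results are not independent of those above.

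**Figure D3:**
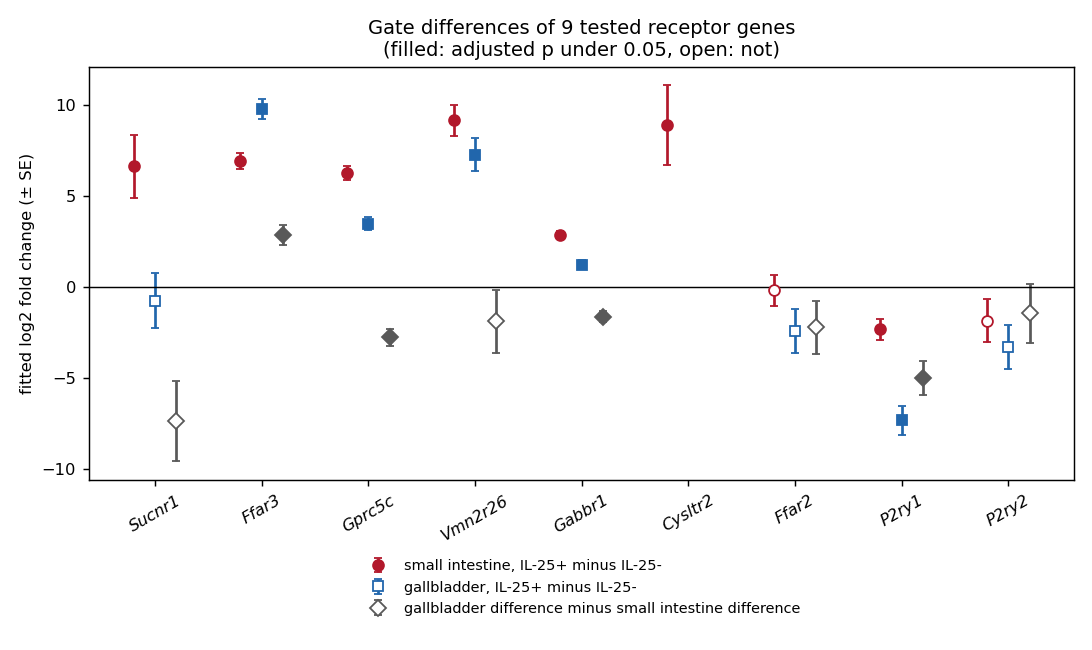
Fitted log2 fold changes (± SE) of the 9 tested receptors between gates in the small intestine (circles), in the gallbladder (squares) and their difference (diamonds), filled where the adjusted p is under 0.05. Cysltr2 is drawn for the small intestine only, since its other values rest on groups with 0 to 3 reads, and P2ry1 is the 1 receptor with filled values below 0 in both tissues.

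Related receptors on 5 lists were set beside the 10 genes. Of 75 listed, 42 were tested, and in the small intestine 6 were higher, 13 lower and 23 not called, with a median log2 fold change of -2.23, beside 14.5% higher and 12.8% lower and a median of -0.07 over all tested genes. In the gallbladder 6 were higher, 11 lower and 25 not called, with a median of -1.12, beside 12.4% higher, 14.4% lower and a median of -0.15 over all tested genes. Gpr55, a lysophospholipid receptor, was higher in IL-25+ cells of the small intestine (194.3 ± 18.17 against 49.01 ± 12.56 CPM, adjusted p = 9.3e-05) and lower in those of the gallbladder (-1.35 ± 0.25 log2, adjusted p = 0.00145). In IL-25+ cells of the small intestine P2ry6, the UDP receptor 21.9 kb from P2ry2, was lower (-6.21 ± 0.74 log2, adjusted p = 4.85e-05). Ptger4, a prostaglandin E2 receptor, and Vdr, the vitamin D receptor, which also binds a bile acid, were lower in the small intestine too. P2ry6 was lower in IL-25+ cells of the gallbladder as well (-3.63 ± 0.59 log2, adjusted p = 0.000597). In the gallbladder Gpr35, which is known to bind tryptophan metabolites (180.3 ± 21.99 against 2.234 ± 1.298 CPM, adjusted p = 1.17e-06), the taste receptor subunit Tas1r3 (48.45 ± 13.9 against 2.669 ± 0.7098 CPM, adjusted p = 7.22e-05) and Gpr18 were higher in IL-25+ cells, and Ptger4 was lower. Gpr35 was lower in IL-25+ cells of the small intestine (-1.25 ± 0.38 log2, adjusted p = 0.027). Gpr18 was higher there as well (3.76 ± 0.78, adjusted p = 0.003), and Tas1r3 did not pass there (0.64 ± 0.47, adjusted p = 0.337). Between the IL-25+ groups Gpr35 (3.26 ± 0.41), Tas1r3 (3.03 ± 0.50) and P2ry6 (5.1 ± 0.72) were higher in the gallbladder, and Gpr55 was lower (-2.64 ± 0.26). Among the bile acid receptors and sensors, none of 8 was higher in IL-25+ cells, with 2 lower in the small intestine and 4 in the gallbladder, a list too short to set its absence of higher calls apart from the shares over all genes.

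Signalling partners of these receptors, the G protein subunits and the effectors behind them, passed the test in both directions. Of 46 tested partners, 19 were higher, 10 lower and 17 not called in the small intestine (median 0.26), and 15 were higher, 8 lower and 23 not called in the gallbladder (median 0.38). Those called came to 63.0% and 50.0% of the tested partners, beside 27.2% and 26.8% of all tested genes, whose medians were -0.07 and -0.15. Gnai2 is an inhibitory alpha subunit to which receptors such as Ffar3 couple. It rose from 136.9 ± 8.543 to 1149 ± 175.5 CPM in the small intestine and from 212.7 ± 46.6 to 1226 ± 281.6 CPM in the gallbladder (adjusted p = 1.07e-06 and 4.42e-06). Plcg2, a phospholipase C, and Itpr2, a calcium release channel of the endoplasmic reticulum, were higher in both tissues by 5.27 and 3.64 log2 in the small intestine and by 5.62 and 5.05 in the gallbladder. Trpm5, the cation channel of the taste cascade, was among the 4 partners with the lowest p in the small intestine (7.22 ± 0.67), and Arrb1, an arrestin that desensitises receptors, among those in the gallbladder (2.28 ± 0.20). Each was higher in the other tissue as well, Trpm5 by 7.63 ± 0.68 in the gallbladder and Arrb1 by 1.62 ± 0.19 in the small intestine.

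Of 22 tested genes for making or clearing the ligands, 3 were higher and 7 lower in the small intestine (median -0.75), and 5 were higher and 3 lower in the gallbladder (median -0.21). The share that was higher in the small intestine was near the 14.5% of all tested genes, where 12.8% were lower, and in the gallbladder 12.4% of all tested genes were higher and 14.4% lower. The 3 higher in the small intestine were Alox5, Alox5ap and Ltc4s, which make cysteinyl leukotrienes, the ligands of Cysltr2, and they were higher in the gallbladder as well. Alox5ap reached 632.9 ± 103.4 CPM in SI-pos and 672.1 ± 71.9 in GB-pos libraries, against 4.21 ± 2.73 and 1.863 ± 1.373 in the IL-25- libraries. Nt5e, which turns AMP into adenosine, was lower in IL-25+ cells of the small intestine (-5.28 ± 0.87, adjusted p = 0.000652). Its mean in the gallbladder was also lower in IL-25+ cells, at 1.065 ± 0.9195 against 29.6 ± 1.658 CPM. Abat, which breaks down GABA, was lower in IL-25+ cells of the gallbladder (-3.21 ± 0.44, adjusted p = 0.000155). Its mean in the small intestine was also lower in IL-25+ cells, at 29.98 ± 12.62 against 101.2 ± 21.14 CPM. None of the 7 tested succinate genes was higher in either tissue, with 2 lower in the small intestine and 1 in the gallbladder. That list is too short to set its absence of higher calls apart from the shares over all tested genes.

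**Figure D4:**
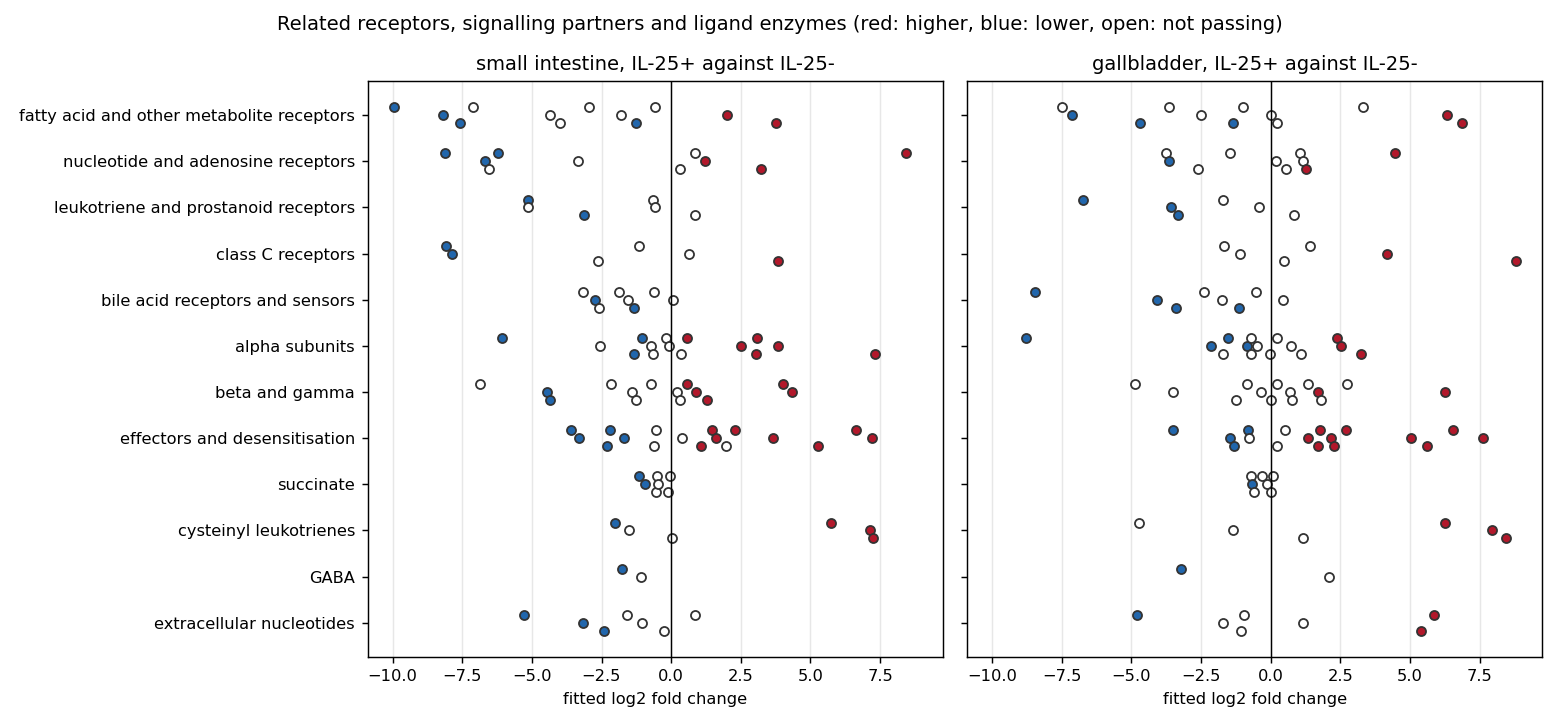
Fitted log2 fold changes between gates of the tested related receptors, signalling partners and ligand enzymes by list, in the small intestine (left) and the gallbladder (right), filled red where higher and blue where lower at an adjusted p under 0.05. Cysteinyl leukotriene genes and effectors have filled red points in both tissues, and bile acid receptors and sensors have none.

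The genes whose log2 CPM profile over the 12 libraries was most like that of a receptor are given as a description, since the 4 groups set most of each correlation. For Ffar3 they were Dpysl2 (Pearson's r = 0.991) and Ppp1r14c (0.989), and for Gprc5c they were St3gal2 (0.99), Arl8a (0.989) and Reep5 (0.986). Vmn2r26 was closest to Rgl2 (0.989), Rogdi (0.983) and Ptpn18 (0.982), and Gabbr1 to Gabarap (0.991), Suco (0.983) and Golgb1 (0.979). P2ry1 was closest to Galm (0.991), Reep6 (0.991) and Dpp4 (0.986), the last an enterocyte brush border peptidase. Sucnr1, with 0 reads in 3 libraries, and P2ry2 had less close neighbours, led by Strn4 (0.942) and Nek5 (0.95). Among the receptors themselves the closest pair was Vmn2r26 and Gabbr1 (r = 0.948), and the value for P2ry1 and P2ry2 was r = -0.00368.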

How the data were processed

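RNA of 12 libraries of sorted Flare25 mouse epithelium was sequenced as single-end 50 bp reads, per the labels' protocols, with a Nextera XT kit, which does not mark strand. The authors deposited raw read counts per Ensembl gene. Alignment used STAR 2.7.2b and GRCm38, per the submitters' processing notes, which also list DESeq2 1.26. The counter, its strand setting and the annotation release are not given in the sources used here. Of 43432 genes, 42462 matched GENCODE M21 and 970 did not, and 11 columns that match no sample label were not used.

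Counts were tested with edgeR 4.0.16 in R 4.3.3, in one fit of 4 groups with TMM scaling, filterByExpr with a minimum count of 10 (16636 genes kept), robust two-sided quasi-likelihood F tests and Benjamini-Hochberg adjustment over all tested genes of each of 5 comparisons, at a threshold of 0.05. Standard errors were derived as |log2 fold change| over the root of F. CPM were computed from TMM library sizes, levels were compared between genes per kb of exon only, and profile likeness used log2 CPM with a prior count of 2. A gene among those most alike in profile is not reported here. A group at 0 was set to a floor of 3 counts in all for folds, ratios against few counts carry exact binomial 95% intervals, and both cover counting error only. The floor was 0.0421 to 0.122 CPM per library. Libraries of a group differed beyond sampling noise (lowest chi-square per degree of freedom 45.32).

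The 10 genes, the lists and the markers were chosen with earlier results of these data known. All 10 genes are named, and of related genes the 4 with the lowest adjusted p per kind between gates, and of related receptors also between the IL-25+ groups, with exceptions stated where they are named. In 21 alternatives, the fit used DESeq2 1.42.0, limma-voom (limma 3.58.1) with quality weights, RLE size factors, no filter, a stricter filter of 5 CPM in 3 libraries, 2 replicate blocks, the compared groups alone, each library left out, and, chosen after seeing the data, SI-neg 3 and GB-neg 1 left out together. The procedure was tested on simulated counts. Promoters are from RefSeq. Python 3.11.15 with scipy 1.17.1, numpy 2.4.6, pandas 2.3.3 and matplotlib 3.10.9 was used for tables and plots.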

Additional observations from a re-analysis of the deposited data

Results flagged for a closer look

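In the main analysis, for 5 receptors the difference between IL-25+ and IL-25- cells was of another size in the gallbladder than in the small intestine, by edgeR's test of the interaction with Benjamini-Hochberg adjustment. Ffar3 differed more between gates in the gallbladder, by 2.86 log2 (adjusted p = 0.00661, but 0.359 under limma-voom), with GB-pos and SI-pos libraries above the IL-25- libraries of their tissue in 3 of 3 cases each. The difference between gates was smaller in the gallbladder for Gprc5c, by -2.77 log2 (adjusted p = 0.00219), and for Gabbr1, by -1.62 log2 (adjusted p = 0.00674), again with 3 of 3 IL-25+ libraries above the IL-25- libraries in each tissue. P2ry1, lower in all IL-25+ libraries of each tissue, had an interaction of -5.0 log2 (adjusted p = 0.0045). Cysltr2 had a fitted interaction of -12.04 log2 (adjusted p = 0.0358), a value that depends on the prior count because SI-neg and GB-pos libraries had 0 reads, and it lost its call in 13 of 19 alternative fits.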

How the results depend on the processing

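Of 45 receptor results with a test, 27 kept their direction and call under every alternative run, and of 904 refits 851 kept both, 30 lost the call, 15 gained it and 8 turned direction. Limma-voom called 6832 genes between the gates of the small intestine where the main analysis called 4529, and leaving out 1 library gave 3040 to 4774. DESeq2 called 2364 genes in the interaction against 1536. Without SI-neg 3 and GB-neg 1, chosen after seeing the data, 3 receptors passed between the IL-25- groups against 5. No turned direction belonged to a result that passed in the main analysis. Ffar2 between gates of the small intestine turned from -0.19 to 0.19 without SI-pos 1 and to 0.37 without SI-neg 2 (-0.58 to 0.37 over single libraries left out). Sucnr1 between the IL-25- groups turned from -0.14 to 2.89 under limma-voom, 0.56 under the replicate block, 7.2 without SI-neg 1 and 0.32 without GB-neg 3, with -1.02 without SI-neg 3 and GB-neg 1. The interaction turned to 1.84 for P2ry2 without SI-pos 2 (lowest -2.32, without GB-pos 3) and to 0.56 for Vmn2r26 without GB-neg 2 (lowest -3.16, without SI-neg 3 and GB-neg 1). The cause of these changes was not tested. Deviations of same-numbered libraries from their group means had 18 correlations of -0.0518 to 0.162, with 0.0188 to 0.162 for the gallbladder pairs. With 3 libraries per group, these values cannot show whether equal numbers pair the libraries. With the replicate number as a block, 4254 genes and 7 receptors passed between gates of the small intestine, P2ry2 passed in the gallbladder (-4.06, adjusted p = 0.0491) and the Cysltr2 interaction did not (-11.95, adjusted p = 0.0809). With the block within tissue, Cysltr2 did not pass between gates of the small intestine (8.69, adjusted p = 0.064). Of all genes called, the share that was higher moved from 53.1% to 45.7% with RLE and 43.7% under DESeq2 between gates of the small intestine, and from 44.5% to 51.5% and 51.9% between the IL-25+ groups. Low read counts limit Gpbar1, Cysltr2 in the gallbladder and Ffar2 in GB-pos libraries, where groups held 0 to 6 reads, and the cause of these low counts was not tested.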

Other observations

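Of the genes within 100 kb of a receptor gene, 1 to 12 per receptor were tested. Their values are given as a description, with genes chosen after their values were seen. Ffar1, a receptor for longer fatty acids that lies 1.21 kb from Ffar3, had 11, 0 and 0 reads in SI-pos 1 to 3, 8, 50 and 55 in SI-neg 1 to 3 and 0 in every gallbladder library, and its gate difference in the small intestine was -2.95 ± 1.92 log2 (edgeR, adjusted p = 0.294). Mag, a myelin glycoprotein gene 43.0 kb from Ffar3, had 1105 reads in GB-pos and 0 in GB-neg libraries (adjusted p = 0.00132), and 329 in SI-pos against 29 in SI-neg libraries (adjusted p = 0.049). Cd300a, an immune surface receptor gene 17.4 kb from Gprc5c, was higher in IL-25+ cells by 7.42 ± 1.47 log2 in the small intestine (adjusted p = 0.00235) and by 3.29 ± 1.14 in the gallbladder (adjusted p = 0.0484). Near P2ry2, 3 of 3 tested genes fell in the IL-25+ fraction of the small intestine, and 2 of 3 in that of the gallbladder. Of all tested genes, 12.8% and 14.4% were lower in these comparisons. P2ry2 itself passed in neither tissue, and 3 genes are too few to describe the region.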
